A study of Mus musculus with 8 samples.

Results

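The A-type and B-type cyclins Ccna1, Ccna2, Ccnb1 and Ccnb2, the cyclin-dependent kinases Cdk1 and Cdk2, the phosphatase Cdc25c and the mitotic kinases Plk1 and Aurka were followed in mouse testis. These 9 genes were chosen by name and were represented by 15 of the 45101 probe sets on the array, with Cdk1 listed under its older symbol Cdc2a. Each sample was testis RNA taken at postnatal day 23 and measured on its own Affymetrix Mouse430_2 array. The wildtype group held 5 samples (replicates 1, 2, 4, 6 and 7) and the Ctcfl mutant group 3 samples (replicates 3, 5 and 8). The disrupted gene, Ctcfl or Boris, encodes a male germ cell relative of the chromatin organiser CTCF. In the study's methods the mutant allele lacked exons 1 to 8 of Ctcfl, carried an in-frame GFP sequence, was made with a Cre transgene and was kept on a C57/Bl6 background. The study describes the control animals as heterozygous littermates, del/+, and the labels call them wildtype, the name used here. The mutant animals were del/del. The labels do not say that each sample came from a separate animal, so the p-values measure only the spread between these samples.

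Cyclins are regulatory subunits that switch on cyclin-dependent kinases. Cyclin B with CDK1 drives entry into cell division, cyclin A acts with CDK2 or CDK1 in DNA replication and at the entry into division, and CDC25 phosphatases remove the inhibitory phosphates from CDK1. In the testis the same machinery serves the mitoses of spermatogonia and the meiotic divisions of spermatocytes. Ccna1 is the germline member of the cyclin A pair and is needed by male mice to leave meiotic prophase, whereas Ccna2 is used by proliferating cells. CTCFL protein is present just before meiosis, in spermatogonia and preleptotene spermatocytes. The question put to these genes was whether their transcripts differed in testis without CTCFL, before the age at which the study saw germ cell loss. Ccna1 and Cdk2 have a further interest here, since the study used them as reference transcripts in its real-time RT-PCR on adult mutant testis and on ES cells, respectively.

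Promoters of genes that peak in late cell cycle often carry a cell cycle gene homology region (CHR), with the letters TTTGAA or TTTAAA, close to the start of transcription and near CCAAT boxes. The RefSeq promoter table (GRCm38.p6), with 250 bases before and 50 bases after the start, held a sequence for 7 of the 9 genes. Both strands were searched. Of these 7 genes, 5 had at least 1 CHR match of either form (Ccnb1, Ccnb2, Cdk1, Plk1 and Aurka), against 27.6% of all 32851 promoters in the table. All 7 had at least 1 CCAAT match, against 37.4% of all promoters. Shown here are the 150 bases from 100 before the start for Ccnb1, Plk1 and Aurka, whose main probe sets had their lowest level on the same wildtype array, for Cdk1 as the kinase partner of cyclin B, and for Ccna1 as the germline cyclin. The main probe set of Ccna2 was also lowest on that wildtype array, but Ccna2 was among the genes without a promoter sequence. Matches are in capitals. A CCAAT box on the opposite strand reads ATTGG.
Ccnb1, chr13:100786437-100786586, minus strand: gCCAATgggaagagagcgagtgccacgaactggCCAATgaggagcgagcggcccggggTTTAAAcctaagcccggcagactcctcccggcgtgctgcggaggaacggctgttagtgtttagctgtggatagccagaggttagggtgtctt
Plk1, chr7:122159335-122159484, plus strand: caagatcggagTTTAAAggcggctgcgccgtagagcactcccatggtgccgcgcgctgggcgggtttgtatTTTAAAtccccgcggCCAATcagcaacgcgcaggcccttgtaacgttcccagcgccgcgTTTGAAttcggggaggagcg
Aurka, chr2:172370521-172370670, minus strand: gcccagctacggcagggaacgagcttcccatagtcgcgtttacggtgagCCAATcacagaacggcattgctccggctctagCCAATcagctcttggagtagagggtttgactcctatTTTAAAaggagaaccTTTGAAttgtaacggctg
Cdk1, chr10:69352863-69353012, minus strand: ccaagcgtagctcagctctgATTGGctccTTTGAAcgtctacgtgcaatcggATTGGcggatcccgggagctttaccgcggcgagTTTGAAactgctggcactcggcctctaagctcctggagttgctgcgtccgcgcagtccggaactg
Ccna1, chr3:55055006-55055155, minus strand: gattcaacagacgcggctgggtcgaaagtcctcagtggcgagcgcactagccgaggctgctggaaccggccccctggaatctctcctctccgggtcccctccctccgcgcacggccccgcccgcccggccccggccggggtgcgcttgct
The CHR letters of Ccnb1 lay at bases -42 to -37 from the start and the one of Cdk1 nearest the start at -15 to -10. Plk1 had TTTAAA at -89 to -84 and at -29 to -24 and TTTGAA at 30 to 35. Aurka had TTTAAA at 17 to 22 and TTTGAA at 32 to 37. Ccna1 and Cdk2 had no CHR letters in the whole window, and the only CCAAT match of Ccna1 lay at -107 to -103, outside the stretch shown. A match of letters is a description of the sequence and not a measured binding site.

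The deposited values were log2 levels after RMA, and the median per array lay between 6.40 and 6.45. The tissue carried the transcripts of its main cell types on all 8 arrays. Sycp3, of the meiotic chromosome axis, had log2 levels of 12.39 to 12.77, Stra8, of germ cells entering meiosis, 8.67 to 9.05, and Cyp17a1, of Leydig cells, 10.95 to 12.08. Wildtype replicate 7 and mutant replicate 8 stood apart. Their scores on the first principal component, which carried 44.9% of the variance, were 40.2 and 38.2, against -24.8 to -3.10 for the remaining arrays. The spermatid list (17 probe sets of 10 genes, among them Prm1 and Tnp1) had a mean log2 level of 10.60 and 10.02 on these 2 arrays and of 7.98 to 8.74 on the others. The fat list (9 probe sets of 6 genes) had 6.65 and 6.59 against 5.03 to 5.64. In whole tissue, fewer cells of a type and less RNA per cell cannot be told apart. Levels of Ctcfl were not analysed here, and the genotypes are therefore those of the labels alone.

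The cyclin A pair was described first. Ccna1 (1449177_at) had log2 levels of 10.64, 10.74, 10.81, 10.86 and 10.65 in wildtype replicates 1, 2, 4, 6 and 7, and of 10.59, 10.96 and 10.87 in mutant replicates 3, 5 and 8. Both the lowest and the highest of the 8 values were from mutant testis, so the wildtype range lay within the mutant range. The means were 10.74 ± 0.10 (SD, n = 5) and 10.81 ± 0.19 (SD, n = 3), a difference of 0.07 (SE 0.10) on the log2 scale. Ccna2 had a main probe set (1417911_at) at 9.13, 9.03, 8.90, 8.93 and 8.88 in wildtype and 8.99, 9.16 and 9.07 in mutant testis. The mutant values lay within the wildtype range apart from replicate 5, which passed its top. The second Ccna2 probe set (1417910_at) ran from 7.72 to 8.10 in wildtype and from 7.72 to 7.91 in mutant testis. The differences of the 2 probe sets, 0.10 (SE 0.08) and -0.091 (SE 0.09), had opposite signs, so no direction is given for Ccna2.

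The cyclin B pair followed. Ccnb2 (1450920_at) had log2 levels of 12.07, 12.08, 11.99, 12.10 and 12.07 in wildtype and 11.98, 12.20 and 12.15 in mutant testis. Its means were 12.06 ± 0.04 (SD, n = 5) and 12.11 ± 0.11 (SD, n = 3), and the wildtype range lay within the mutant range. Ccnb1, the cyclin that mitosis cannot do without, had 3 probe sets of its own. The main one (1448205_at) stood at 7.88, 7.77, 7.74, 7.63 and 7.51 in wildtype and 7.70, 7.74 and 7.55 in mutant testis, with all 3 mutant values inside the wildtype range. The probe set 1419943_s_at, whose suffix marks probes shared with other transcripts, ran from 11.07 to 11.28 in wildtype and from 11.08 to 11.47 in mutant testis. The third (1419944_at) ran from 5.98 to 6.49 and from 6.03 to 6.58. Their differences were -0.041 (SE 0.09), 0.010 (SE 0.10) and 0.16 (SE 0.14). The signs were mixed and the 95% confidence interval of each included 0. A further probe set, 1416076_at, is assigned to 3 genes, Ccnb1 and a pair of predicted genes, and was left out of the 15. It differed by 0.06 (SE 0.11).

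Cdk1 and Cdk2, the kinases that the cyclins bind, varied little. Cdk1 (1448314_at) had log2 levels of 10.46, 10.49, 10.41, 10.41 and 10.41 in wildtype and 10.59, 10.47 and 10.38 in mutant testis. Both ends of the range were from mutant testis, and the whole range was 0.21. The means were 10.44 ± 0.04 (SD, n = 5) and 10.48 ± 0.10 (SD, n = 3). For Cdk2 the rule for a main probe set took 1447617_at, which ran from 3.24 to 3.40 on the 8 arrays, near the lowest value of each array (2.897 to 3.002), and therefore says little about the gene. The other probe set (1416873_a_at) had 10.70, 10.69, 10.69, 10.67 and 10.78 in wildtype and 10.67, 10.71 and 10.62 in mutant testis. It differed by -0.038 (SE 0.06), and mutant replicate 8 had the lowest value. Its pooled SD within genotypes, 0.0446, was among the smallest on the array, since 1.98% of all probe sets had a smaller one.

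Cdc25c had the most variable of the 9 main probe sets. Its main probe set (1456077_x_at) had log2 levels of 7.08, 7.12, 7.22, 7.01 and 7.46 in wildtype and 6.94, 7.07 and 7.54 in mutant testis, and the second (1422252_a_at) had 6.85, 6.72, 6.79, 6.88 and 7.19 and then 6.76, 6.82 and 7.25. On both probe sets the highest wildtype value was replicate 7 and the highest of all was mutant replicate 8. The genotype means of the main probe set were nearly equal, at 7.18 ± 0.17 (SD, n = 5) and 7.18 ± 0.32 (SD, n = 3). Its pooled SD was 0.231, larger than that of 89.9% of all probe sets. The Ccnb1 probe set 1419944_at, not a main one, had nearly the same pooled SD, 0.230, and the second Cdc25c probe set had 0.214.

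Of the division kinases, Plk1, which acts at centrosomes, kinetochores and in the exit from prophase, had a single probe set (1448191_at). Its log2 levels were 10.61, 10.51, 10.59, 10.75 and 10.40 in wildtype and 10.60, 10.74 and 10.47 in mutant testis, with the mutant values inside the wildtype range. Aurka, the centrosome and spindle kinase, had 12.20, 12.09, 12.19, 12.25 and 11.97 on its main probe set (1424511_at) in wildtype testis. In mutant testis it had 12.30, 12.35 and 12.20. Mutant replicates 3 and 5 lay above every wildtype value and replicate 8 within them. The means were 12.14 ± 0.11 (SD, n = 5) and 12.28 ± 0.08 (SD, n = 3), a difference of 0.14 (SE 0.08). The second Aurka probe set (1440129_at), at lower levels, had 5.16, 5.43, 5.34, 5.57 and 5.36 against 5.69, 5.49 and 5.64. Its difference of 0.23 (SE 0.10) had the same sign, and again 2 of 3 mutant values exceeded every wildtype value.

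**Figure D1:**
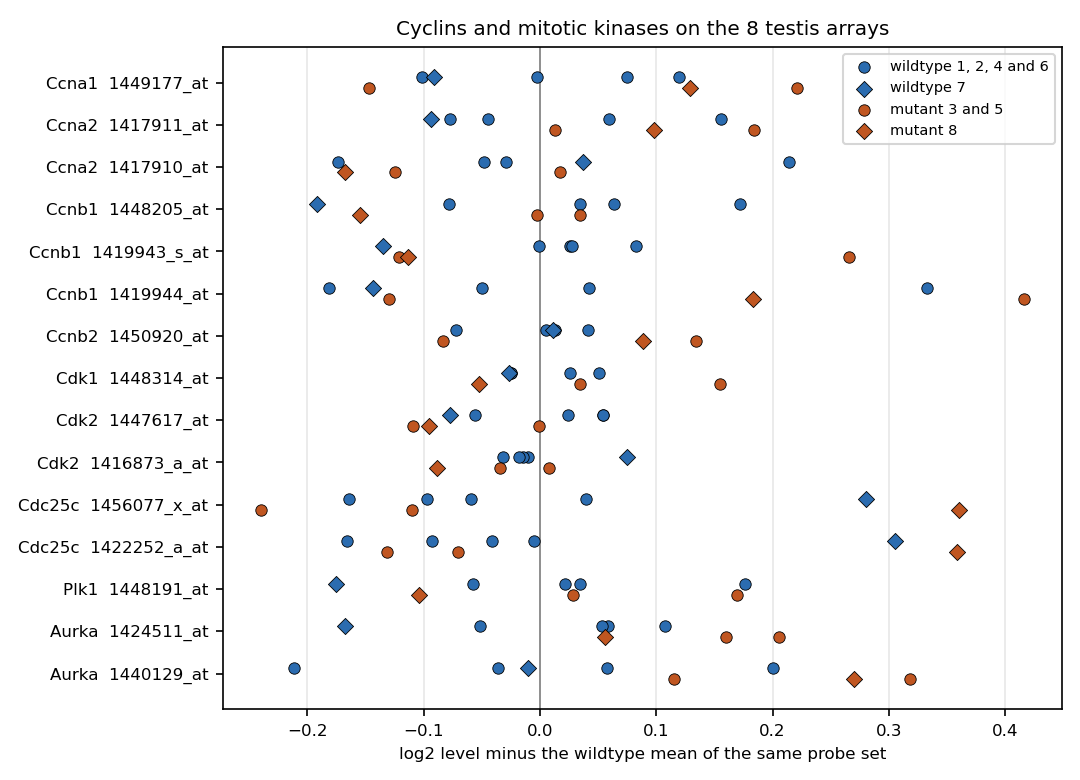
Log2 level of each of the 15 probe sets on the 8 arrays, minus the wildtype mean of that probe set; blue points are wildtype and orange points mutant samples, and diamonds mark wildtype replicate 7 and mutant replicate 8. The groups overlapped on all 15 probe sets, and both diamonds lay at the top on both Cdc25c probe sets.

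The genotypes were then compared for all 15 probe sets in the limma fit across the whole array. At an adjusted p of 0.05, 0 of the 15 probe sets and 0 of all 45101 (0%) passed, and the adjusted p of each of the 15 was 1.0. At an unadjusted limma p under 0.05 the count was 1 of 15, where 1564 probe sets or 3.47% of the array passed (1.76% higher and 1.70% lower in mutant testis). It was the second probe set of Aurka, higher in mutant testis, with a limma p of 0.0346 across all probe sets and an exact permutation p of 0.0714. The one-way comparison without shared variance also gave 0 probe sets after adjustment. The wildtype and mutant values were separated on 0 of the 15 probe sets, against 2.70% of the array (1.38% higher and 1.31% lower). By sign, 11 of the 15 were higher and 4 lower in mutant testis, with a median difference of 0.05, beside 51.5% higher and a median of 0.0032 over all probe sets. Without wildtype replicate 7 and mutant replicate 8 the signs were 10 higher and 5 lower and the median 0.03, with 0 of the 15 at an unadjusted limma p under 0.05. In that fit 6.55% of all probe sets passed, 49.0% were higher and the median was -0.0024. Probe sets of 1 gene share its transcripts, so the 15 signs are not independent. Among germ cell markers on all 8 arrays, 10 of 13 spermatogonium, 4 of 10 spermatocyte and 0 of 17 spermatid probe sets were higher in mutant testis. Of these, 2 spermatogonium, 1 spermatocyte and 0 spermatid probe sets had an unadjusted limma p under 0.05. In the other marker lists, 7 of 8 Sertoli, 8 of 9 Leydig, 5 of 9 peritubular, 5 of 5 macrophage and 2 of 9 fat probe sets were higher. How far the make-up of the tissue enters the differences of the 15 probe sets was not tested.

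The intervals show how large a difference these arrays could have missed. For the main probe sets of the 9 genes, all 95% confidence intervals from the limma fit lay between -0.32 and 0.32 on the log2 scale, which is between 0.803-fold and 1.25-fold. The widest was that of Cdc25c. That of Cdk2 came from the probe set near the lowest level of the arrays and says little about the gene. The other Cdk2 probe set had an interval of -0.17 to 0.097. Outside the main probe sets an interval could reach further, as on 1419944_at of Ccnb1 with -0.16 to 0.48. Ccna1, which the study used as a reference transcript in adult testis and which was measured here at day 23, had an interval of -0.15 to 0.28, or 0.904-fold to 1.22-fold. Cdk1 had -0.10 to 0.20 and Ccnb2 -0.11 to 0.20. The interval of Aurka, -0.037 to 0.32, lay mostly above 0 and included it, and that of its second probe set was 0.021 to 0.45. Exact two-sided permutation tests of the 9 main probe sets gave unadjusted p from 0.107 for Aurka to 0.964 for Cdc25c, where the smallest p that 5 against 3 arrays allow is 0.0357. These tests do not show that any of the 9 transcripts was equal in both genotypes.

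**Figure D2:**
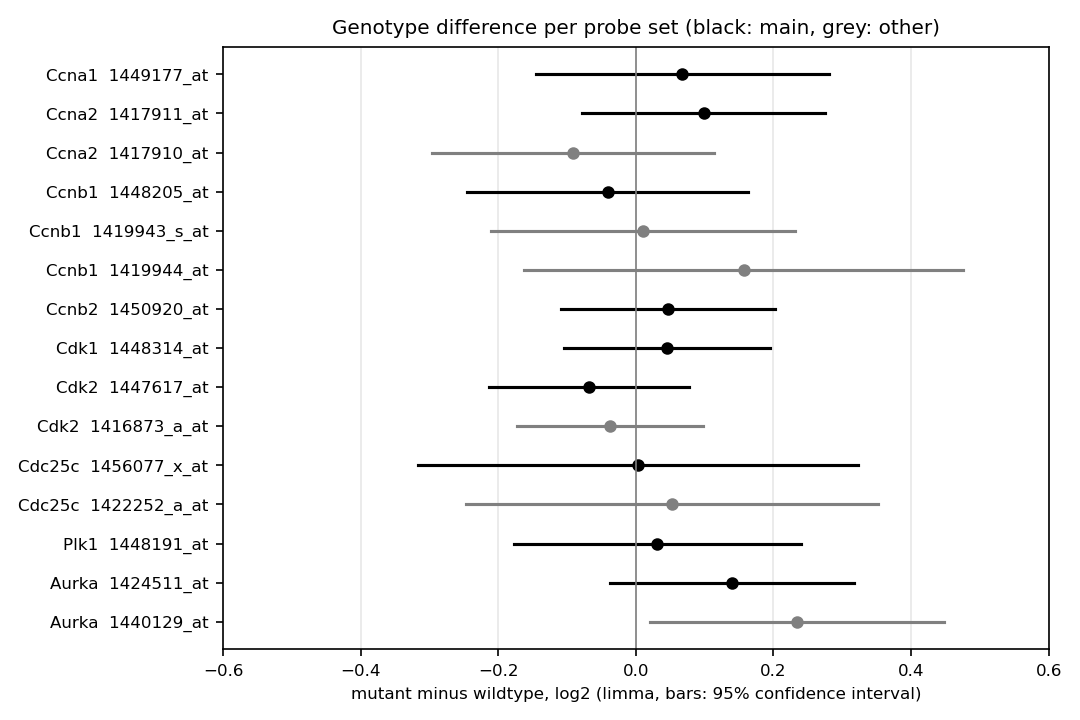
Mutant minus wildtype difference of each probe set in log2 units (points) with 95% confidence intervals from the limma fit (bars); black marks the main probe set of a gene and grey the others. The interval included 0 on 14 of the 15 probe sets, and that of the second Aurka probe set ran from 0.021 to 0.45.

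Apart from genotype, wildtype replicate 7 and mutant replicate 8 were each set against the other arrays of their own genotype. Cdc25c stood higher on both. Its main probe set was 7.46 on wildtype replicate 7 and 7.01 to 7.22 on the other wildtype arrays, and 7.54 on mutant replicate 8 and 6.94 to 7.07 on the other mutant arrays. The departures were 0.35 and 0.53 on the log2 scale, above those of 94.7% and 96.8% of all probe sets on the same arrays. The second probe set departed by 0.38 and 0.46. Cdc25c has no probe set without a suffix, and the _x_at of the main one marks probes that may also bind other transcripts. How far such binding enters these values was not tested.

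Plk1, Ccnb1 and Aurka went the other way on both arrays. Plk1 was 10.40 on wildtype replicate 7 against 10.51 to 10.75, and 10.47 on mutant replicate 8 against 10.60 to 10.74. The main probe set of Ccnb1 was 7.51 against 7.63 to 7.88 and 7.55 against 7.70 to 7.74. Aurka was 11.97 against 12.09 to 12.25 and 12.20 against 12.30 to 12.35. Each of these 3 main probe sets thus lay below the range of the other arrays in both genotypes, by departures of -0.24 to -0.13. The share of all probe sets that lay below the range on both arrays was not counted, so this is a description only. Departures at least as low were common on these arrays, since on wildtype replicate 7 and mutant replicate 8 respectively 11.5% and 21.4% of all probe sets departed lower than Ccnb1, 13.8% and 17.9% lower than Plk1, and 15.04% and 27.2% lower than Aurka. The further probe sets of Ccnb1 and Aurka did not lie below the range on both arrays. The Ccnb1 probe set 1419943_s_at was below it on wildtype replicate 7 alone. Those of 1419944_at and the second Aurka probe set lay within the range on both arrays. Cdk1 was 10.38 on mutant replicate 8 against 10.47 to 10.59, but on wildtype replicate 7 it was 10.41, as on wildtype replicates 4 and 6. The main probe set of Ccna2 was 8.88 on wildtype replicate 7 against 8.90 to 9.13, and lay within the range on mutant replicate 8. Its second probe set lay within the range on wildtype replicate 7 and below it on mutant replicate 8. Ccna1 and Ccnb2 lay within the range of the other arrays on both. The spermatid list moved far more than any of these genes, with median departures of 1.264 and 1.503 and 17 of 17 probe sets higher on each array, and the fat list departed by 0.62 and 1.005. No value on this scale is 0. The part of spermatid or fat transcripts in the Cdc25c, Plk1, Ccnb1 and Aurka values was not tested.

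**Figure D3:**
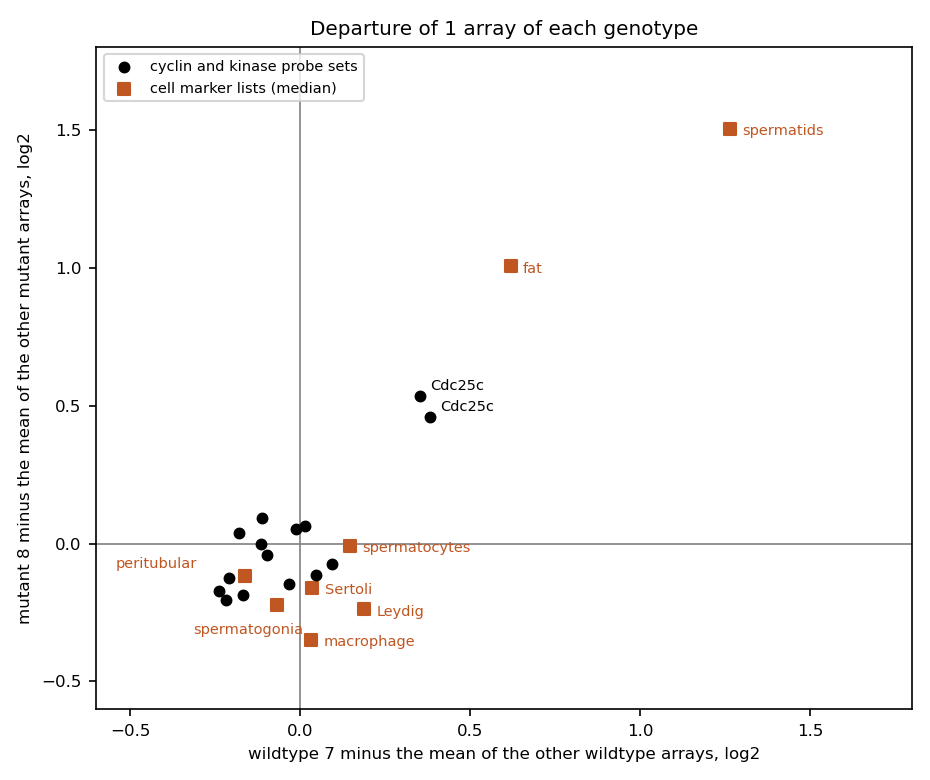
Departure in log2 units of wildtype replicate 7 from the mean of the other wildtype arrays (horizontal axis) and of mutant replicate 8 from the mean of the other mutant arrays (vertical axis); black points are the 15 cyclin and kinase probe sets and orange squares the medians of the cell marker lists. The Cdc25c probe sets lay at 0.35 to 0.38 and 0.46 to 0.53, toward the fat and spermatid lists, and the other 13 probe sets lay between -0.24 and 0.09 on both axes.

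Within arrays, the balance of paired genes was followed as the difference of their log2 levels relative to its wildtype mean. Ccna1 minus Ccna2 ran from -0.26 to 0.16 in wildtype and from -0.16 to 0.04 in mutant testis. With the second probe set of Ccna2 it ran from -0.32 to 0.25 and from -0.023 to 0.30. Ccnb1 minus Ccnb2 ran from -0.20 to 0.17 and from -0.24 to 0.08, with its lowest wildtype value on replicate 7 and its lowest mutant value on replicate 8. Cdk1 minus the second probe set of Cdk2 ran from -0.10 to 0.07 and from 0.03 to 0.19. The genotypes overlapped in each of these balances.

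The wider division machinery was taken from 5 lists of 54 genes, of which 52 were measured by 121 probe sets of their own. Probe sets of Cks2 and Cdkn2d are assigned to several genes and were not used. At an adjusted limma p of 0.05, 0 of the 121 passed. At an unadjusted p under 0.05, 4 probe sets did (3.31%, beside 3.47% of the array), 3 higher and 1 lower, and the same 4 had genotypes that did not overlap (3.31%, beside 2.70%). Among other cyclins and CDKs 18 of 31 probe sets were higher in mutant testis, with a median difference of 0.03. Among CDK regulators 11 of 17 were higher (median 0.03), among other mitotic kinases 12 of 21 (median 0.0053), and among partners of the anaphase-promoting complex and of division 19 of 29 (median 0.02). The DNA replication list had 9 of 23 higher, with a median of -0.024, and none of its probe sets, which include Mki67, Pcna and the Mcm genes, had an unadjusted p under 0.05. Without wildtype replicate 7 and mutant replicate 8, 68 of the 121 were higher and 6 had an unadjusted p under 0.05 (4.96%, beside 6.55% of the array in that fit), 5 of them higher.

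Ccnb3 had the largest difference in these lists. It encodes a B-type cyclin of meiotic prophase. Its only probe set (1427744_at) had log2 levels of 6.005, 5.90, 5.80, 6.01 and 5.79 in wildtype and 6.31, 6.76 and 6.13 in mutant testis. Every value but that of mutant replicate 5 lay below the median levels of the arrays, 6.40 to 6.45. All 3 mutant values lay above all 5 wildtype values, and replicate 5 was the highest. The means were 5.90 ± 0.11 (SD, n = 5) and 6.40 ± 0.33 (SD, n = 3), a difference of 0.50 (SE 0.13). It ranked 70 of 45101 by p, with an unadjusted limma p of 0.00365, yet its adjusted p was 1.0. Leaving out single arrays moved the difference between 0.32 and 0.63, and it was 0.60 without both arrays that stood apart.

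The other 3 probe sets at an unadjusted p under 0.05 had smaller differences. Cdkn1c, which encodes the CDK inhibitor p57, had 7.34 to 7.43 in wildtype and 7.50 to 7.61 in mutant testis (1417649_at), a difference of 0.16 (SE 0.06). Cdk6, a partner of D-type cyclins, had 7.21 to 7.53 and 7.04 to 7.21 on 1435338_at, a difference of -0.20 (SE 0.08) that was -0.11 without both arrays that stood apart. Its remaining probe sets differed by -0.040 and -0.091 and had no unadjusted p under 0.05. Bub3, of the spindle checkpoint, had 5.12 to 5.52 and 5.54 to 5.78 on 1459104_at, a difference of 0.34 (SE 0.11). Its 4 remaining probe sets differed by 0.22, 0.0023, -0.086 and -0.12, so the gene has no single direction.

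Further relatives of the 9 genes had no probe set with an unadjusted limma p under 0.05. Aurkc, the aurora kinase most used in germ cells, had 9.70 to 9.82 in wildtype and 9.76 to 9.81 in mutant testis, a difference of 0.0096 (SE 0.06). Aurkb differed by 0.06 (SE 0.07) and 0.03 (SE 0.07) on 2 probe sets. Cdc20, which activates the anaphase-promoting complex, differed by 0.05, -0.073 and -0.068 on 3 probe sets, and Cdc25a by 0.12, 0.05 and 0.10. Cdc25b differed by -0.047 (SE 0.08), Cdk4 by -0.024 (SE 0.10), and Wee1, the kinase that opposes CDC25, by -0.038 and 0.04. The Plk4 probe sets, for the kinase of centriole duplication, lay between -0.048 and 0.03. The S phase cyclin Ccne2 differed by -0.24 (SE 0.12) with overlapping groups, and its paralog Ccne1 by -0.0021 and 0.03.

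**Figure D4:**
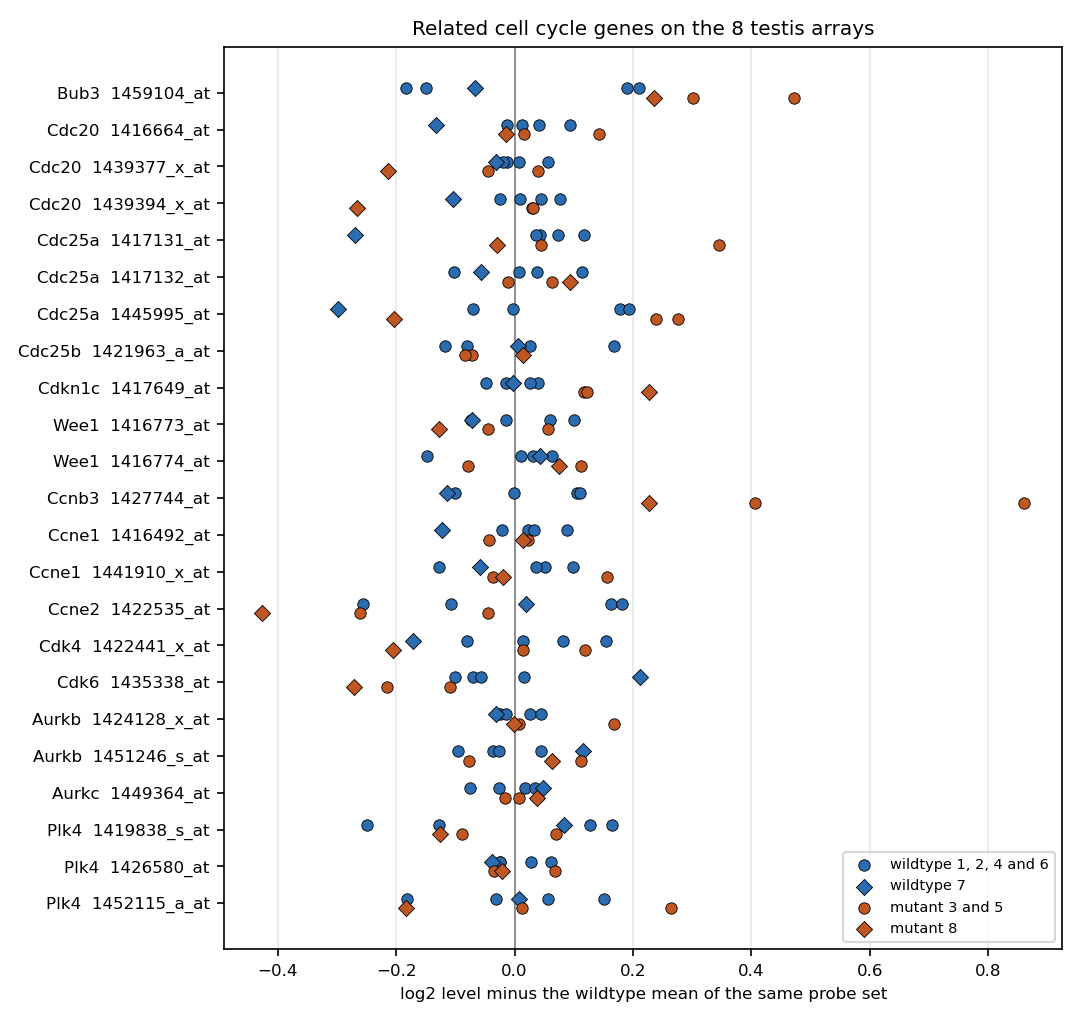
Log2 level of the named relatives and list genes on the 8 arrays, minus the wildtype mean of each probe set, with wildtype in blue, mutant in orange and diamonds for wildtype replicate 7 and mutant replicate 8. All 3 mutant points of Ccnb3 lay to the right of the 5 wildtype points, while those of Aurkc lay among them.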

How the data were processed

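Testis RNA of 5 wildtype and 3 Ctcfl mutant samples was measured on Affymetrix Mouse430_2 arrays, grouped by title. The authors deposited log2 levels after RMA background correction and quantile normalisation, as their methods state. Versions and the genome build of the annotation are not given in the sources used here. Columns and tables that hold the authors' own comparisons (group means, differences, folds, p-values) were not used.

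All 45101 probe sets (64 controls included) were fitted without a filter with limma 3.58.1 in R 4.3.3 (lmFit, eBayes). Tests were two-sided and p-values were adjusted by Benjamini-Hochberg over all probe sets. Single genes were also tested by exact permutation of the 8 arrays. The fit was tested on simulated data. Genes were named through Entrez IDs in the RefSeq gene table (GRCm38.p6), which held the ID of 33571 of the 36858 probe sets with 1 ID, and 1952 probe sets assigned to several genes were not named. The main probe set of a gene has no _s_at, _x_at or _a_at suffix where one exists, and then the highest mean level. List genes were named if they had an unadjusted p under 0.05 or are close relatives. Genes of like pattern were to be sought for members spanning over 1 log2 unit between arrays, and 0 of the 9 did. Python 3.11.15, numpy 2.4.6, pandas 2.3.3, scipy 1.17.1 and matplotlib 3.10.9 were used for the rest. The members and lists were chosen with earlier results of these data known. The number of arrays limits the precision.

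The alternatives were leaving out each array, leaving out wildtype replicate 7 and mutant replicate 8 together (a pair set apart by expression, not by a label), a block for that pair, repeated quantile normalisation, centring on the medians, only probe sets above the median level, a trend with a robust prior, array weights, a one-way comparison without shared variance, the mean over the probe sets of a gene and its other probe sets. The last of these was chosen after seeing the data. The choice of the pair, too, rests on the expression values themselves.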

Additional observations from a re-analysis of the deposited data

Results flagged for a closer look

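In wildtype testis, 52 measures were searched for 1 array far from the other 4, and 5 stood out, where chance gives about 1 in 20, or 2.60 here. The measures overlap. Wildtype replicate 7 accounted for 4 of them. On it the probe set 1416873_a_at of Cdk2 was highest, at 10.78 against 10.70 on the nearest wildtype array. Cdc25a on 1417131_at was lowest there, at 10.65 against 10.95. It also had the highest mean of the spermatid list, 10.60 against 8.74, and of the fat list, 6.65 against 5.64. The remaining measure was Wee1 on 1416774_at, which was 8.76 on wildtype replicate 2 against 8.92. With 3 arrays, mutant testis was not searched in this way.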

How the results depend on the processing

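No paired analysis was possible because replicate numbers 1 to 8 were each used once over both genotypes. The 9 main differences had 154 alternative values, of which 135 kept their direction and 0 passed the adjusted threshold. The one-way comparison, the trend with a robust prior and the restriction to higher levels leave each difference as it was. These settings could therefore not change a direction, though their values are counted among the 135. Aurka (0.10 to 0.23) and Ccnb2 (0.0024 to 0.11) kept their direction under all alternatives run. So did Cdk2 (-0.10 to -0.038), but nearly all of its values come from the probe set near the lowest level of the arrays and say little about the gene. Cdc25c reversed most, but its main difference was 0.0034 (SE 0.14), so close to 0 that small shifts change its sign. It was -0.10 without both wildtype replicate 7 and mutant replicate 8, -0.055 with a block for them, -0.0022 with repeated quantile normalisation, -0.00077 with centred arrays and -0.040 with array weights. Leaving out 1 array gave -0.17 (without mutant replicate 8) to 0.12 (without mutant replicate 3). Ccnb1 reversed to 0.042 as the mean of its probe sets and to 0.010 and 0.16 on the others, and Ccna2 to -0.091 on its other probe set. Leaving out 1 array, Ccna1 ranged from -0.0089 to 0.18, Ccnb1 from -0.089 to 0.016, Cdk1 from -0.0087 to 0.095 and Plk1 from -0.038 to 0.10. The median of the 15 probe sets ranged from 0.0024 without mutant replicate 5 to 0.11 without mutant replicate 3. Over the array, 1 probe set passed the adjusted threshold with the block, 1439739_at, which is assigned to Tsp50 and a further entry and was named after its value was seen (difference -0.85, limma adjusted p = 0.0301). The 1564 at an unadjusted p under 0.05 changed to 2956 without the pair, 2644 with the block and 707 above the median level, and ranged from 1220 to 2649 leaving out 1 array, the last without mutant replicate 8. Above the median level fewer probe sets were tested. The cause of the other changes was not tested.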
